A study of Mus musculus with 12 samples.

Results

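Hhex, Bach2 and Tle3, a set of 3 genes tied to the memory fate of B cells, were described in germinal centre (GC) B cells of the mouse spleen across light zone (LZ) and dark zone (DZ) cells of high and low antigen affinity. The members were chosen by name, and each was read from its probe set with 1 gene symbol, taking the probe set of highest mean over the 12 arrays where a gene had several. Each of the 3 genes had 1 such probe set, so the rule fixed nothing further, but the genes were proposed with earlier results of these arrays known. Tests on them are therefore no independent support for a pattern. They are 3 of 19938 genes with such a probe set and 3 of 11206 genes that passed the filter on low values, which asked for a value at or above the array's median on at least 3 arrays. All 3 genes lay at or above that median on 12 of 12 arrays.

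All 4 groups came from the same kind of transfer. SwHEL B cells, which carry a receptor for hen egg lysozyme and the CD45.1 marker, were given to C57BL/6J hosts with the CD45.2 marker, and the hosts received sheep red blood cells carrying HEL3x, a mutant lysozyme. On day 10, donor cells that were CD45.1+, CD45.2-, IgG1+ and CD38 low were sorted from the spleen of female mice. The groups were LZ_high and LZ_low (CD86 high, CXCR4 low, of high or low affinity), and DZ_high and DZ_low (CXCR4 high, CD86 low, of high or low affinity), with 3 arrays in each. The gate on CD45.1 and CD45.2 leaves out host cells by its design, but the labels do not say how many passed it. They also do not say how affinity was gated, or if a group's arrays stand for different animals. The p-values therefore measure the spread among these samples, and part of it may be technical. Each group held 1 array of each of 3 matched sets, read as a shared batch or day from the sample descriptions, and replicate numbers are those of the sets. Values are the deposited log2 RMA expression values.

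In the germinal centre, B cells divide and mutate their receptors in the dark zone and are tested for antigen binding and T cell help in the light zone, from which they return to the dark zone or leave as memory or plasma cells. HHEX is a homeobox transcription factor that acts largely as a repressor and, in mice, promotes the formation of memory B cells. TLE3 belongs to the Groucho co-repressors, which do not bind DNA themselves but are recruited by factors such as HHEX. BACH2 is a leucine zipper repressor that pairs with small MAF proteins, holds back the plasma cell regulator gene Prdm1 and, in mice, favours memory over plasma cell fate.

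The 250 bases before a start annotated for each gene are printed, as the sequence next to the starts of the genes compared, from RefSeq on build GRCm38.p6 and all on the + strand. Capitals mark the motifs found. The windows lie at chr19:37434591-37434840 for Hhex, chr4:32417185-32417434 for Bach2 and chr9:61372116-61372365 for Tle3. The Hhex window ends at the first base of the RefSeq gene and the Tle3 window close to it, while the Bach2 window lies deep inside the gene and does not precede the gene as a whole.
Hhex: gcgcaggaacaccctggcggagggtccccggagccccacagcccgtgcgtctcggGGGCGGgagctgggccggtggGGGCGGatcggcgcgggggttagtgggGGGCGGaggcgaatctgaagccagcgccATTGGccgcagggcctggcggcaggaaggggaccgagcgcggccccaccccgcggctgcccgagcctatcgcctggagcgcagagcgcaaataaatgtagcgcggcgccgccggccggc
Bach2: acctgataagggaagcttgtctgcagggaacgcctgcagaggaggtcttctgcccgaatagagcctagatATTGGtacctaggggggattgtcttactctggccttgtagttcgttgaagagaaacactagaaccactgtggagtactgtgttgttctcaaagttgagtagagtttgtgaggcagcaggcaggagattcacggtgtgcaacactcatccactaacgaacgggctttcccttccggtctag
Tle3: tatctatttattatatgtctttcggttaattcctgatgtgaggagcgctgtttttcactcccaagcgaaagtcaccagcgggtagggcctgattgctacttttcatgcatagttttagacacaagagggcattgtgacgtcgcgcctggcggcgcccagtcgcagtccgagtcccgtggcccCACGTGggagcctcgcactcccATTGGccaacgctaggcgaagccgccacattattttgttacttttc
Both strands were searched for the GC box (GGGCGG), the CCAAT box (CCAAT), the E-box (CACGTG), the AP-1 core (TGANTCA), the CRE (TGACGTCA) and the TATA box (TATAAA), none of which overlapped another in these windows. Hhex had GC boxes beginning 195, 174 and 147 bases before its start and a CCAAT box on the reverse strand at 119. Bach2 had a CCAAT box on the reverse strand at 180, and Tle3 had an E-box at 68 and a CCAAT box on the reverse strand at 46. The motif that all 3 windows held, CCAAT, was in 33.8% of 32851 mouse windows of the same length, the GC box in 32.7%, the E-box in 6.02%, the AP-1 core in 6.75%, the CRE in 1.55% and the TATA box in 12.4%. The G and C share was 76.0% for Hhex, 50.4% for Bach2 and 52.4% for Tle3, against a median of 52.4% over all windows (quartiles 45.2% and 61.2%). A match describes these letters and is no evidence that a factor binds there.

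The arrays had medians between 5.57 and 5.72 and correlated with each other at 0.951 to 0.993 over all probe sets. Matched set 3, with 4 arrays, lay apart from the others on the first principal component, which held 40.1% of the variance, and LZ_high replicate 3 had the lowest mean correlation with the other arrays. Of the sort genes, Cd86 was 10.81 to 11.12 on the 6 LZ arrays and 9.27 to 10.41 on the 6 DZ arrays. Among the DZ arrays Cd86 was 9.27 to 9.58 at high and 10.00 to 10.41 at low affinity. That difference was -0.81 ± 0.15 (high minus low, SE of the limma fit) without a call. Its part in the affinity differences of the members was not tested. Cxcr4 was 10.00 to 10.88 on the LZ arrays and 10.69 to 11.55 on the DZ arrays, so the ranges of Cxcr4 overlapped. The 10 GC B cell markers used here all lay above the array median on every array. The mean of 7 T cell markers was 6.53 on LZ_low replicate 3, against 4.96 to 5.80 on the other 11 arrays.

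Hhex was higher in LZ than in DZ cells, by 4.11-fold over both affinities, and its level was highest in LZ cells of low affinity. The probe set of Hhex (10462818) read 7.99, 7.97 and 7.12 on the LZ_high arrays of sets 1 to 3 and 8.98, 9.01 and 8.55 on the LZ_low arrays. It read 5.72, 6.16 and 5.67 on the DZ_high arrays and 7.003, 6.07 and 6.75 on the DZ_low arrays. All 6 LZ arrays, at 7.12 to 9.01, lay above all 6 DZ arrays, at 5.67 to 7.003. The share of all genes whose LZ and DZ arrays lie apart was not counted, so this separation does not set Hhex apart. LZ_high replicate 3 was the lowest of the LZ arrays and DZ_low replicate 1 the highest of the DZ arrays. The group means were 7.69 ± 0.50 in LZ_high, 8.85 ± 0.26 in LZ_low, 5.85 ± 0.27 in DZ_high and 6.61 ± 0.48 in DZ_low (SD, n = 3 each). In the order of levels, LZ_low stood apart from LZ_high and LZ_high from DZ_low, while the ranges of DZ_low and DZ_high overlapped. In these sorted bulk samples, fewer cells that express a gene and less RNA per cell cannot be told apart.

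The LZ minus DZ difference of Hhex was 2.04 ± 0.21 on the log2 scale (SE of the limma fit, 95% interval 1.58 to 2.50), with an adjusted p of 0.0018 over all genes tested. The fit called 47 of 11206 genes in this contrast, 0.419%, and 135 with the matched set as a block, 1.2%. Hhex was among the called genes in each of the 12 fits that left out 1 array, with differences between 1.91 and 2.18. Since these levels were known when the gene was proposed, the call describes the arrays and adds no support.

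At each affinity the zone difference of Hhex pointed the same way in every matched set. Among high affinity cells, LZ minus DZ was 2.27, 1.81 and 1.45 in sets 1 to 3, and the fitted difference was 1.84 ± 0.30 (SE), with a limma adjusted p of 0.0816 that missed the threshold of 0.05. Among low affinity cells it was 1.98, 2.94 and 1.79, and the fitted difference was 2.24 ± 0.30, a 4.72-fold difference that was called (limma adjusted p = 0.0273). These contrasts each called 4 genes, 0.0357% of those tested at high affinity and 0.0357% at low affinity, and with the matched set as a block 9 and 25 genes. The call at low affinity was kept in 4 of the 12 fits without 1 array, while the difference stayed between 1.97 and 2.44. At high affinity, leaving out LZ_high replicate 3 gave 2.13 and an adjusted p of 0.0384.

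**Figure D1:**
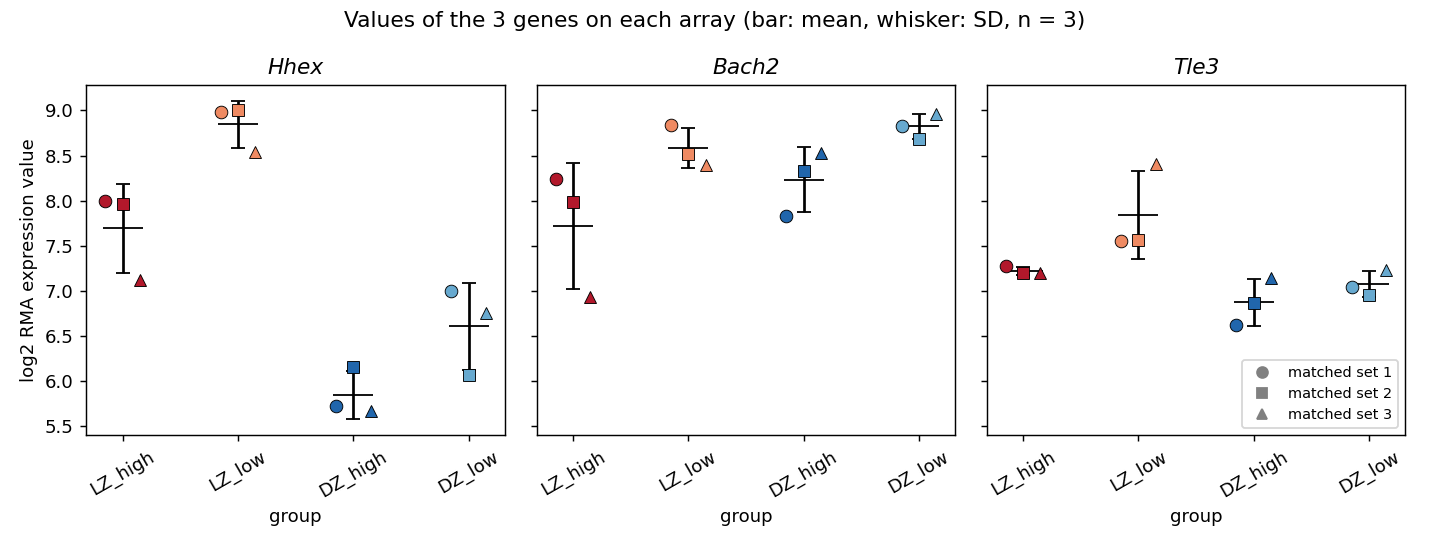
Log2 RMA values of Hhex, Bach2 and Tle3 (y axis) on the 12 arrays, by group (x axis), with 1 point per array, symbols for the matched set, a bar for the mean and whiskers for the SD (n = 3). The Hhex values of the 6 LZ arrays, 7.12 to 9.01, lie above those of the 6 DZ arrays, 5.67 to 7.003, while the Bach2 values of the zones overlap and LZ_low replicate 3 is the highest for Tle3 at 8.41.

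Within each zone, Hhex read lower in high affinity than in low affinity cells, without a call. In LZ cells, high minus low was -0.99, -1.04 and -1.43 in sets 1 to 3, so all LZ_high values lay under all LZ_low values, and the fitted difference was -1.15 ± 0.30 (SE, 95% interval -1.80 to -0.51, not adjusted for the number of genes). In DZ cells it was -1.28, 0.09 and -1.09, with a fitted difference of -0.76 (interval -1.41 to -0.11) and overlapping ranges. The mean of both zones was -0.96 ± 0.21. The limma adjusted p was 0.999 in LZ, 1 in DZ and 0.605 for the mean, and the interaction, which sets the affinity difference of LZ cells against that of DZ cells, was -0.40 (interval -1.31 to 0.52, adjusted p = 1), or -0.11 without LZ_high replicate 3.

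None of the affinity contrasts called any gene with limma, so a gene without a call there is not set apart from the rest. The share of all genes whose high and low affinity arrays lie apart within a zone was not counted. Ranges that lie apart therefore do not set a gene apart either. The share called was 0% of 11206 genes for high minus low in LZ, 0% in DZ, 0% for the mean of the zones and 0% for the interaction. At an unadjusted p under 0.05 the counts were 466, 247, 588 and 177 genes. The mean level of 6 naive follicular B cell markers, a list that holds Fcer2a, was 7.28 to 7.55 on the LZ_high arrays and 7.68 to 8.21 on the LZ_low arrays. It was 7.16 to 7.29 on the DZ_high arrays and 7.40 to 7.68 on the DZ_low arrays. In LZ cells all 6 read lower at high affinity, but in DZ cells 3 read lower and 3 higher. Over both affinities, 3 read higher in LZ than in DZ cells, with Fcer2a at 1.70, and 3 lower. At low affinity 5 read higher in LZ than in DZ cells and 1 lower, and at high affinity 3 read higher and 3 lower. For their mean level at low affinity, the lowest LZ array was at 7.681 and the highest DZ array at 7.675. At high affinity the LZ and DZ ranges of that mean overlapped. Their part in the Hhex difference was not tested.

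Bach2 did not differ between the zones beyond the spread of the arrays, and within each zone its values were lower in high affinity cells on every matched set, without a call. The probe set of Bach2 (10503695) read 8.24, 7.98 and 6.93 on the LZ_high arrays of sets 1 to 3 and 8.84, 8.52 and 8.40 on the LZ_low arrays. It read 7.83, 8.33 and 8.53 on the DZ_high arrays and 8.83, 8.69 and 8.96 on the DZ_low arrays. LZ_high replicate 3 was the lowest of all arrays, and the LZ and DZ ranges overlapped at both affinities. The means were 7.72 ± 0.69 in LZ_high, 8.58 ± 0.23 in LZ_low, 8.23 ± 0.36 in DZ_high and 8.82 ± 0.14 in DZ_low (SD, n = 3 each). The order of levels was DZ_low, LZ_low, DZ_high and LZ_high, and each group overlapped with the next.

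High minus low of Bach2 was -0.59, -0.54 and -1.47 in LZ cells of sets 1 to 3 and -0.99, -0.36 and -0.43 in DZ cells, so all high affinity values lay under all low affinity values within each zone. How many of all genes separate in this way was not counted, so the separation does not set Bach2 apart. The fitted differences were -0.86 ± 0.31 in LZ (SE, interval -1.54 to -0.19) and -0.59 ± 0.31 in DZ (interval -1.27 to 0.08). The mean of both zones was -0.73 ± 0.22, 1.66-fold lower in high affinity cells, with a limma adjusted p of 0.849. Set 3 gave the largest LZ difference: without that set it was -0.56, and without LZ_high replicate 3 alone it was -0.47.

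The zone difference of Bach2 was -0.38 ± 0.22 over both affinities (interval -0.85 to 0.10, limma adjusted p = 0.882), but -0.18 without LZ_high replicate 3 and -0.0231 without matched set 3. By set it was 0.41, -0.35 and -1.60 among high affinity cells and 0.01, -0.17 and -0.56 among low affinity cells, so its sign changed from set to set. The fitted value was -0.51 at high affinity (0.03 without matched set 3) and -0.24 at low affinity (-0.08 without it). The affinity difference did not differ between the zones beyond its error, with an interaction of -0.27 (interval -1.22 to 0.68).

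Tle3 averaged 1.47-fold higher in LZ than in DZ cells without passing the threshold, and in LZ cells it read lower at high affinity on every set, again without a call. The probe set of Tle3 (10586039) read 7.27, 7.20 and 7.20 on the LZ_high arrays of sets 1 to 3 and 7.55, 7.57 and 8.41 on the LZ_low arrays. It read 6.62, 6.86 and 7.14 on the DZ_high arrays and 7.05, 6.96 and 7.23 on the DZ_low arrays. The LZ_high values lay close together, and LZ_low replicate 3 stood well above all other arrays. The means were 7.22 ± 0.04 in LZ_high, 7.84 ± 0.49 in LZ_low, 6.88 ± 0.26 in DZ_high and 7.08 ± 0.14 in DZ_low (SD, n = 3 each). LZ_low stood apart from LZ_high, while LZ_high overlapped with DZ_low and DZ_low with DZ_high.

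LZ minus DZ of Tle3 was 0.65, 0.34 and 0.06 among high affinity cells of sets 1 to 3 and 0.50, 0.61 and 1.17 among low affinity cells, above 0 in every set. The fitted difference was 0.56 ± 0.16 (SE, interval 0.20 to 0.91), with a limma adjusted p of 0.27, or 0.0955 with the matched set as a block. At high affinity it was 0.35 and at low affinity 0.76, and neither was called. High minus low was -0.28, -0.37 and -1.20 in LZ cells and -0.42, -0.10 and -0.09 in DZ cells, with fitted values of -0.62 ± 0.23 (interval -1.12 to -0.12) and -0.20 ± 0.23 (interval -0.70 to 0.30). The interaction was -0.41 (interval -1.12 to 0.29), but -0.13 without LZ_low replicate 3 and -0.06 without matched set 3.

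The array with the highest Tle3 value also had the highest T cell marker level. Of the 7 T cell markers with a probe set, Cd3d read 7.32 on LZ_low replicate 3, against 4.02 to 5.00 on the other 11 arrays, Cd3g read 7.60 against 3.76 to 6.67, and Thy1 read 8.05 against 5.63 to 6.62. Cd3e, Cd4, Cd8a and Cd5 read no higher on that array than on the highest of the others. The mean of 10 macrophage markers was also highest there, at 5.60, against 4.92 to 5.32 on the other 11 arrays, as was that of the naive follicular B cell markers, at 8.21 against 7.16 to 7.85. The mean of 8 granulocyte markers was 7.07 there and 5.39 to 7.04 on the other 11 arrays. The part of these markers in the Tle3 values was not tested. Without that array the Tle3 difference between high and low affinity LZ cells was -0.34 and the difference between LZ and DZ cells was 0.41, both in the same direction as with it. For Hhex the same values were -1.30 and 2.12, and for Bach2 -0.96 and -0.33.

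**Figure D2:**
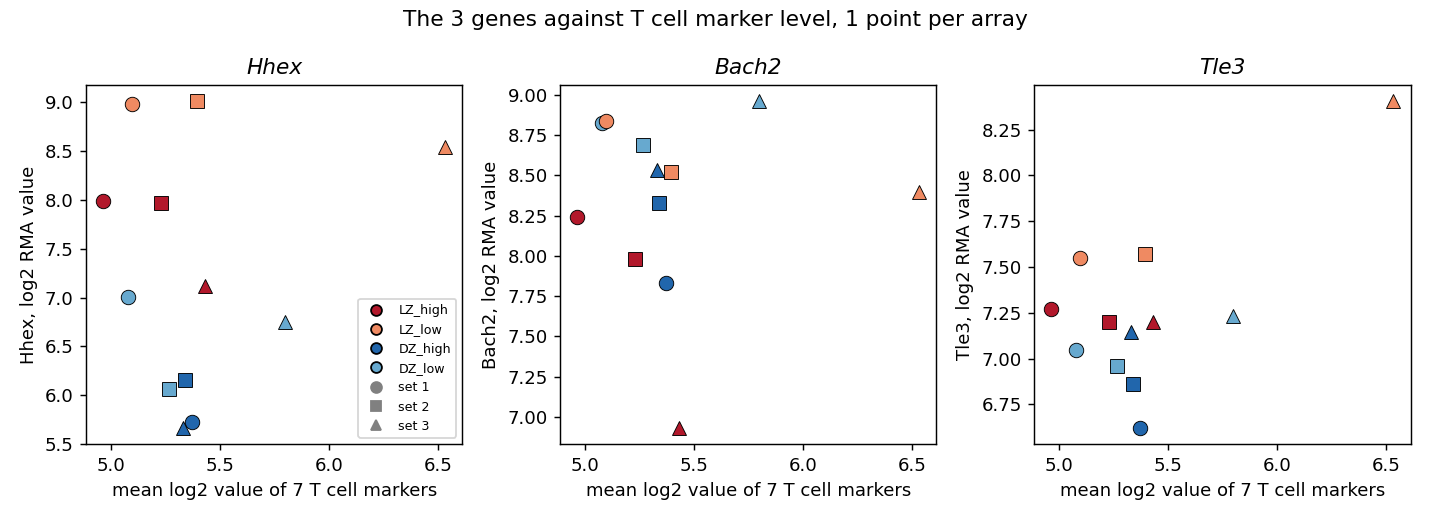
Log2 RMA values of Hhex, Bach2 and Tle3 (y axes, each with its own scale) against the mean log2 value of 7 T cell markers (x axis), with 1 point per array, colours for the group and symbols for the matched set. LZ_low replicate 3 lies alone at a marker level of 6.53, where Tle3 is at its highest value of 8.41 and Hhex and Bach2 are under the other LZ_low arrays.

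Zone and affinity took different shares of the spread of the 3 genes over the 12 arrays. Of the sum of squares of Hhex, zone held 75.3% and affinity 16.5%, and the matched sets held 2.06%. For Bach2 zone held 12.3%, affinity 46.4% and the matched sets 3.32%, with 36.3% left in differences between arrays that none of these or the interaction accounted for. For Tle3 zone held 41.8%, affinity 22.8% and the matched sets 15.8%. These shares describe 12 arrays and carry no test. The highest array lay 10.1-fold above the lowest for Hhex, 4.08-fold for Bach2 and 3.44-fold for Tle3. On 1 array Hhex lay only 0.02 above the array's median on the log2 scale, and no detection p-values were used here, so its DZ level is not shown to lie above background and its folds rest on that level.

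**Figure D3:**
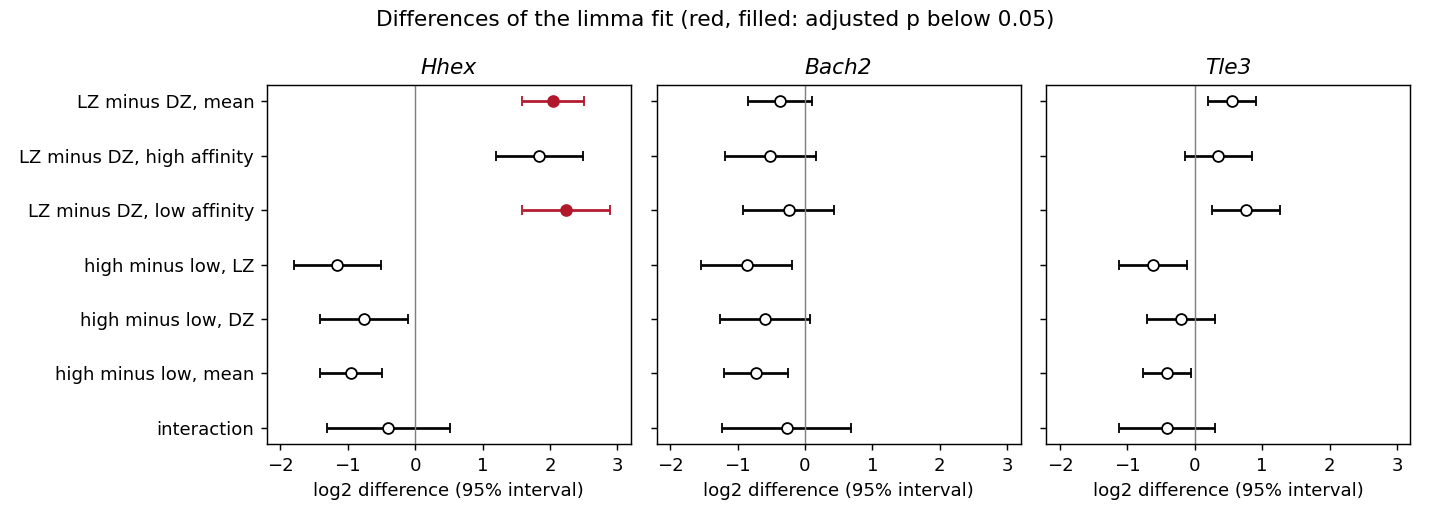
Fitted log2 differences (x axis) of the 3 genes in the 7 contrasts (y axis), with points for the limma estimate, bars for the 95% interval and red filled points for an adjusted p below 0.05. Hhex is called for LZ minus DZ over both affinities (2.04) and at low affinity (2.24), and every high minus low estimate of the 3 genes lies under 0 without a call.

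The genes whose values over the 12 arrays were most like those of each member were named by Pearson's r, a description over arrays that share groups, matched sets and the sorting, with no test. For Hhex they were Nxpe2 (r = 0.959), Fcer2a (0.933), the gene of CD23, a receptor for IgE, Cd72 (0.933), a co-receptor of B cells, the protein kinase C gene Prkcb (0.930), a signal carrier of the B cell receptor, and the transmembrane protein gene Heg1 (0.929). The genes most opposite were Polh (-0.912), whose DNA polymerase takes part in somatic hypermutation, Jchain (-0.905), which links antibody units, and the myosin light chain gene Myl4 (-0.885). Nxpe2, Fcer2a and Cd72 were called higher in LZ cells, and Polh, Jchain and Myl4 lower. They were picked on these same arrays, so those calls are no separate support. Without LZ_low replicate 3 Nxpe2 was still first for Hhex, at 0.954.

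For Bach2 the most like gene was Smad4 (r = 0.983), the shared signal carrier of the TGF-beta family, which also ranked first with values centred within the matched sets (0.985) and without LZ_low replicate 3 (0.984). Traf5 (0.951), an adaptor of TNF family receptors, Ypel5 (0.943), the chromatin regulator gene Ankrd11 (0.938) and Clk3 (0.928), a kinase of splicing factors, came next. The most opposite were Ceacam20 (-0.885), Tcf23 (-0.867) and Cdc23 (-0.858), a subunit gene of the anaphase-promoting complex. By Spearman's rank correlation Smad4 stood at 0.979 and Cdc23 at -0.585. No correlation was run without LZ_high replicate 3, the lowest array for Bach2, so its weight in these likenesses was not tested. Like Bach2, Smad4 was not called between the zones (-0.28 ± 0.17, SE) or between affinities in LZ cells (-0.49 ± 0.24), and without matched set 3 these values were -0.04 and -0.24.

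For Tle3 the most like genes were Tgfbr2 (r = 0.941), the TGF-beta type II receptor, Nfkbie (0.934), an inhibitor of NF-kB, Myadm (0.931), Nfatc2 (0.928), a calcium-responsive transcription factor, and the sulfotransferase gene Chst15 (0.917). Sergef (-0.935), the RNA-binding protein gene Lsm5 (-0.883) and the ATP synthase inhibitor gene Atpif1 (-0.864) were the most opposite. These leaned on LZ_low replicate 3: without it the r of Tgfbr2 was 0.875 and its rank 22, and that of Nfkbie was 0.831 and its rank 55. Between the members, r was 0.745 for Hhex and Tle3, or 0.856 without LZ_low replicate 3. It was 0.10 for Hhex and Bach2 and 0.163 for Bach2 and Tle3.

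Of the other Groucho co-repressors tested, none was called between the zones, where 0.419% of all genes tested were called. At that share a short list can easily hold no call, so 0 calls here and below do not set a list apart. The family list held 6 genes, of which 5, Tle3 among them, were tested and 0 were called in LZ cells. Its median was -0.01, against -0.004 over all genes tested. Tle6 differed by -0.13 ± 0.12 (SE), Tle4 by 0.06 ± 0.18 and Tle5, a short member of the family, by -0.02 ± 0.31. Tle4 differed by -0.43 ± 0.26 between high and low affinity LZ cells, or by -0.19 without matched set 3, and Tle1 was too dim to test. Of 10 genes for HHEX partners, which share Tle1, Tle3 and Tle4 with the family, 8 were tested and 0 passed, against the same share. Among them Bcl6, the master regulator of the germinal centre, differed by 0.18 ± 0.13 between the zones and by -0.18 ± 0.18 between affinities in LZ cells.

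Of the 12 BACH2 partners and relatives, 9 were tested and 0 passed between the zones, against 0.419% of all genes tested, with a median of 0.02. Nfe2l2, which encodes NRF2, an activator at the sites that BACH proteins repress, differed by -0.49 ± 0.18 (adjusted p = 0.494), Nfe2l1 by 0.34 ± 0.18 and the small MAF gene Maff by 0.17 ± 0.11. Of 13 genes known to be repressed by BACH proteins, 8 were tested and 0 passed, against the same share. Gclc, which makes glutathione, differed by -0.90 ± 0.32 between the zones (adjusted p = 0.467), and the biliverdin reductase gene Blvrb by -0.61 ± 0.35. At high affinity, all 8 read lower in LZ than in DZ cells without a call, with a median of -0.21, and at low affinity 4 read higher and 4 lower. This did not hold for all 8 without matched set 3: Fth1 went from -0.03 to 0.02 and Gclc from -1.02 to -0.55. Blvrb went from -0.57 to -0.65 and Cdkn2a from -0.05 to -0.21. The share of all genes that read lower was not counted. Prdm1, Hmox1, Nqo1 and Slc7a11 were too dim to test.

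Among 13 tested genes of 17 other regulators tied to memory fate, 1 rose and 1 fell in LZ cells, against 0.419% called of all genes tested. Tox, an HMG-box factor gene, rose by 0.71 ± 0.13 (SE, adjusted p = 0.0427), and Foxp1, a forkhead factor gene, fell by 0.58 (SE 0.11, adjusted p = 0.0453). Tox read 9.69 to 10.17 in LZ_high and 9.94 to 10.31 in LZ_low, against 9.38 to 9.53 in DZ_high and 8.94 to 9.44 in DZ_low. All LZ values of Tox lay above all DZ values, but the share of all genes that separate the zones in this way was not counted. Foxp1 read 7.33 to 7.52 in LZ_high and 7.61 to 7.95 in LZ_low. In DZ_high it read 7.70 to 7.97 and in DZ_low 8.50 to 8.74, so the LZ and DZ values of Foxp1 overlapped. Between affinities in DZ cells Foxp1 differed by -0.76, without a call. Neither was called without matched set 3, with adjusted p-values of 0.0535 for Tox and 0.141 for Foxp1. The list's median was 0.06. The inhibitor gene Id2 differed by 0.86 ± 0.25 without a call, and Klf2 by 0.27 ± 0.18.

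Among 13 tested genes of 16 for memory B cell surface and survival, Fcer2a rose in LZ cells by 1.70 ± 0.13 (SE, adjusted p = 0.000353), and it was also called at each affinity. It read 10.19, 10.02 and 10.17 on the LZ_high arrays and 10.91, 10.81 and 11.06 on the LZ_low arrays. It read 7.98, 8.40 and 8.44 on the DZ_high arrays and 9.22, 9.23 and 9.70 on the DZ_low arrays, so the 4 groups did not overlap. How many of all genes separate the groups in this way was not counted. With the matched set as a block, Ccr6, the receptor for CCL20, was also called higher (0.50, adjusted p = 0.0463 with the block and 0.174 without) and Nt5e, which encodes CD73, lower (-0.97, adjusted p = 0.0376 with the block and 0.0754 without). Ccr6 reached the array median on the 3 LZ_low arrays and on 0 of the other arrays, so it passed the filter only through the group where it was high, and neither its call nor its size supports a difference.

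Between affinities in LZ cells, 12 of these 13 genes read lower at high affinity and 0 were called, with a median of -0.36, against -0.002 over all genes tested. The filter could favour genes that are high in 1 group: without it, 13 of the 14 genes with a probe set read lower, with a median of -0.34. Both counts still hold Ccr6 and Pdcd1lg2, which reached the array median only on low affinity arrays, and 8 of the 13 reached it on all 12 arrays. The share of all genes that read lower was not counted, so these counts support no difference. Fcer2a differed by -0.80 ± 0.18 (SE, limma adjusted p = 0.999) and was above the median on 12 of 12 arrays. Ccr6 read 5.01, 5.13 and 5.28 on the LZ_high arrays, all below their array medians, against 5.64, 6.01 and 5.99 on the LZ_low arrays. Pdcd1lg2, which encodes PD-L2, read below the median on 3 of 3 LZ_high arrays and reached it on 3 low affinity arrays. Its fitted difference of -0.73 ± 0.32 was -0.23 without matched set 3. In DZ cells 8 of the 13 read lower at high affinity, with a median of -0.11. The mean level of naive follicular B cell markers, which share Ccr7, S1pr1 and Fcer2a with this list, was higher in LZ_low than in LZ_high as given for Hhex, and its part was not tested.

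**Figure D4:**
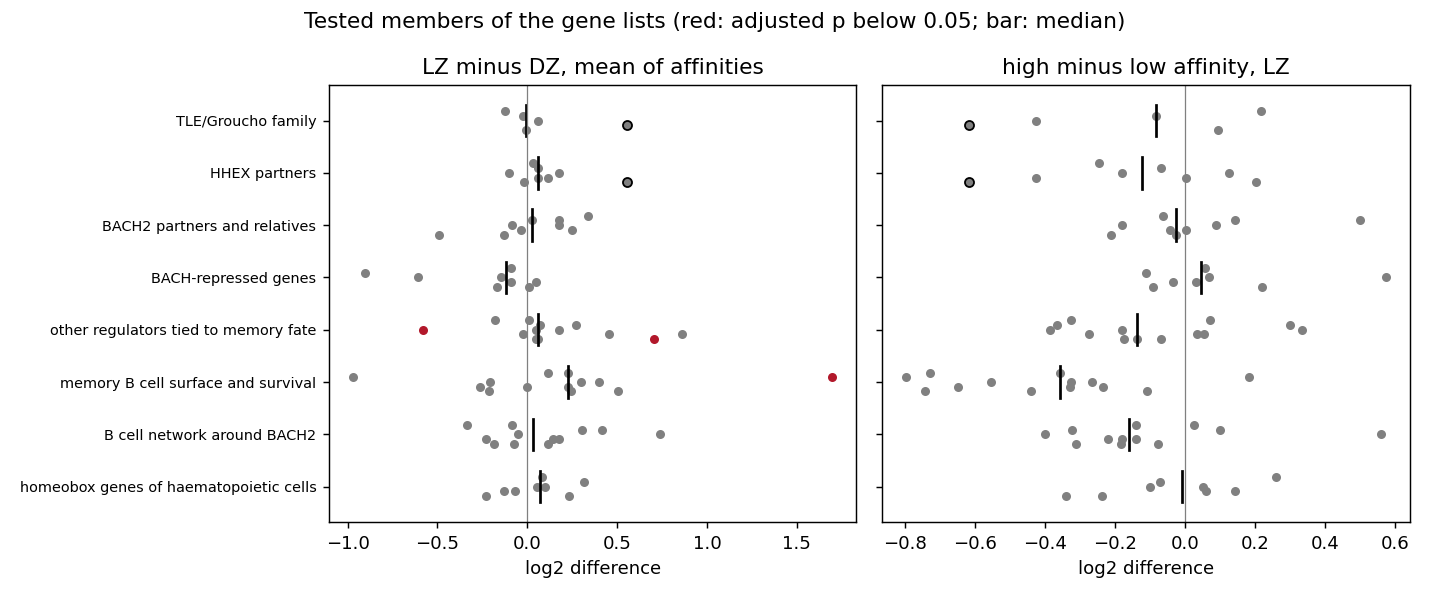
Log2 differences (x axis) of the tested genes of 8 lists (y axis) for LZ minus DZ over both affinities (left) and for high minus low affinity in LZ cells (right), with a point per gene, red for an adjusted p below 0.05, a black outline for Tle3 and a bar for the list's median. Fcer2a at 1.70, Tox at 0.71 and Foxp1 at -0.58 are the called genes on the left, and none is called on the right, where the memory surface and survival list has a median of -0.36.

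Of 12 tested genes in the B cell network around BACH2, 0 passed between the zones, against 0.419% of all genes tested. Irf4, a factor of antigen receptor signalling and plasma cell fate, differed by 0.74 ± 0.21 between LZ and DZ (adjusted p = 0.25) and by 0.56 ± 0.29 between high and low affinity LZ cells. Ebf1 differed by 0.42 ± 0.18 and Foxo1 by -0.23 ± 0.14 between the zones, and Ets1 by -0.40 ± 0.15 between affinities in LZ cells. The list's median between affinities in LZ was -0.16, with 9 of 12 genes lower, against a median of -0.002 over all genes tested. The share of all genes that read lower was not counted, so this count supports no difference. Of 14 homeobox and related genes of blood cells, 8 were tested beside Hhex and 0 passed between the zones, against the same share. Pou2f2 differed by 0.31 ± 0.16 between the zones, Pbx2 by 0.23 ± 0.15 and Satb1 by -0.23 ± 0.15, all under the 2.04 of Hhex on the log2 scale of differences. Without matched set 3 the zone differences were -0.32 for Nfe2l2, 0.15 for Klf2, -0.13 for Foxo1, 0.42 for Pbx2 and -0.01 for Satb1, and the affinity difference of Ets1 in LZ cells was -0.23.

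The mean level of plasma cell markers was 7.81 to 7.97 on the DZ_high arrays, above 7.23 to 7.62 on the LZ_high arrays, 7.11 to 7.37 on the LZ_low arrays and 7.16 to 7.60 on the DZ_low arrays. DZ_high was also the group with the lowest Hhex, and the part of these markers in the differences of the 3 genes was not tested. The mean level of GC B cell markers was 10.25 to 10.38 on the high affinity arrays and 10.44 to 10.47 on the low affinity arrays, so these ranges did not overlap, and its part was not tested either.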

How the data were processed

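The deposited table holds log2 RMA values, 1 column per array, of amplified, biotin-labelled cDNA. Per the submitters' processing notes, RMA was used and the build was mm8; no further step is given there. The log base was read from the range of the values. Of 28853 probe sets, 21789 had 1 gene symbol in the platform annotation, 1621 several and 5443 none.

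Group means of all 12 arrays were fitted with limma 3.58.1 in R 4.3.3 (lmFit, eBayes, two-sided, 7 contrasts), with Benjamini-Hochberg adjustment over 11206 genes and a threshold of 0.05. In data simulated for LZ minus DZ with 11206 genes, 200 of them changed, the fit called 69.8% of those changed by 1 and 96.8% of those changed by 2 on the log2 scale. It also called 14 unchanged genes. The simulated noise was independent between arrays, without the likeness within matched sets. These shares therefore do not describe recovery in the real arrays or in contrasts within 1 zone or 1 affinity. No 2 whole columns were identical, the highest correlation being 0.993. The number of arrays limits the precision.

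The members, lists and contrasts were chosen with earlier results of these data known. Text names the 3 members, list genes called in any contrast and up to 3 per list with the smallest p between zones or between affinities in LZ, the 5 genes most like and 3 most opposite each member, and the sort genes.

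Matched sets came from a suffix shared by sample descriptions, read as a batch or day. With group means removed, 17 of 18 pairs of the same set correlated above 0.1 (median 0.406, lowest -0.071). The fit without the block was kept first. Alternatives were blocks, filters, normalization, variance models, array weights, probe set rules and arrays left out.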

Additional observations from a re-analysis of the deposited data

How the results depend on the processing

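The zone difference of Hhex over both affinities was called under all 12 alternatives, at 2.04 to 2.25, and in all 12 fits without 1 array. At high affinity it became a call with a random block (1.84) and with array weights (1.96), and leaving out 1 array gave 1.69 to 2.13. At low affinity the call was lost with centring on array medians (2.25, adjusted p = 0.0632), with all probe sets tested (2.24, adjusted p = 0.0803) and with only the groups compared (2.24, adjusted p = 0.157), and leaving out 1 array gave 1.97 to 2.44; the cause was not tested. Bach2 turned sign at high affinity without matched set 3 (0.0319, with or without the replicate block) and in the interaction (0.11), where leaving out 1 array gave -0.53 to 0.12. Bach2 and Tle3 were called under none of the alternatives run, and all 3 genes read lower at high affinity in each zone under every one. The replicate block changed no call of the 3 genes.

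The number of genes called between the zones was 135 with the replicate block, 110 with a random block, 80 after quantile normalization, 28 after median centring, 211 with array weights, and 87 without matched set 3 (95 with the block), and 12 to 67 without 1 array. At high affinity these were 9 with the replicate block, 12 with a random block, 21 with array weights, 13 with all probe sets and 0 with only the groups compared (2 to 5 without 1 array). At low affinity they were 25 with the replicate block, 18 with a random block, 7 after quantile normalization, 32 with array weights and 0 with only the groups compared (0 to 5 without 1 array). High minus low in DZ had 3 calls with all probe sets and 0 to 1 without 1 array, and the mean of the zones had 1 with a random block, 1 after quantile normalization, 1 with array weights and 2 with all probe sets. The correlations without LZ_low replicate 3 were added after seeing the data. The number of arrays limits what can be called between affinities.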
